A study of Mus musculus with 6 samples.

Results

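BMP and activin signalling was followed in inguinal white adipose tissue through 10 genes chosen by name: the ligand genes Bmp2, Bmp4, Bmp7, Inhbb, Gdf10 and Mstn, the receptor genes Bmpr1a, Bmpr2 and Acvr1c, and Fst, which encodes the antagonist follistatin. Of these 10, 9 were measured, by 22 probe sets, among 18193 genes in all. No probe set carried the name of Mstn in the annotation used, and Mstn was not analysed here. The groups were 3 wild-type (WT) and 3 Naa10-KO mice, all male, each on an array of its own. Naa10 carries the catalytic activity of a complex that acetylates the N-termini of proteins. Mice of both genotypes were given a high-fat diet (HFD; fat made up 60% of its calories) from 6 weeks of age, for 15 weeks, and spent the last 4 h before dissection at 4 °C. The labels give neither the strain nor how and in which cells Naa10 was deleted, and Naa10 itself was not analysed here, so the genotype labels were not checked against the targeted transcript. The series title asks whether Naa10 restrains heat production by beige adipocytes, the fuel-burning cells that form in this depot in the cold.

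Bone morphogenetic proteins (BMPs), activins and growth differentiation factors are secreted dimers of the TGF-β superfamily. They bring together type I and type II receptor kinases on the cell surface, which phosphorylate Smad proteins that then enter the nucleus with Smad4. BMP ligands act mainly through Smad1, Smad5 and Smad9, and activins through Smad2 and Smad3. In fat, BMP2 and BMP4 are known to commit mesenchymal precursors to the adipocyte lineage, and BMP7 to favour brown adipocytes. Activin B, a dimer of the Inhbb product, is made by adipocytes, and the receptor ALK7, encoded by Acvr1c, is known to restrain lipolysis in them. Follistatin binds activins in the extracellular space and keeps them from their receptors.

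RNA was hybridised to the Affymetrix Mouse Genome 430 2.0 array, and levels are log2 signals as deposited, with 1 probe set per gene, that of the highest mean. Low signal here means below 5.86, the array-wide median over every probe set and array, called the low-signal mark from here on. Adipocyte markers were high on every array, with list means of 13.91 to 14.33 in WT and 13.79 to 14.10 in Naa10-KO (8 of 10 markers measured). Skeletal muscle markers differed between the genotypes: for 14 of 16 the lowest Naa10-KO array exceeded the highest WT array. The linear signals of these 16 summed to 8387 to 22747 on the WT arrays and to 121378 to 158104 on the Naa10-KO arrays. WT replicate 3 stood apart from the other WT arrays, with a muscle list mean of 8.62 against 5.37 and 5.92. The Gapdh control probe sets served as a check of RNA integrity. Their 3' minus 5' difference (log2) was 0.55 on Naa10-KO replicate 1, against -0.27 to 0.01 elsewhere. The Actb control probe sets gave higher differences, from 1.59 to 1.85 among WT arrays and from 1.42 to 2.07 among Naa10-KO arrays. Naa10-KO replicate 1 had the highest of these (2.07), followed by WT replicate 1 (1.85). By Actb, no array was thus free of 3' excess, and Naa10-KO replicate 1 stood apart by Gapdh only. Smooth muscle and pericyte markers had 8 of 8 means lower in Naa10-KO (median -0.25, range -0.72 to -0.047). Groups were apart downward for 2 of these 8, against 8.14% of all genes, and overlapped for the rest. The marker at -0.72 was below the low-signal mark on all 6 arrays. Progenitor and fibroblast markers had 4 of 9 means higher (median -0.060), with groups apart upward for 2 and downward for 3, against 10% and 8.14% of all genes. Endothelial and macrophage markers had medians of 0.036 and 0.048. In limma, 1 of the 16 skeletal muscle markers passed, higher in Naa10-KO, against 0.0879% of all genes. No marker of the other lists passed. In bulk tissue, fewer cells of a type and less RNA per cell cannot be told apart.

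None of the 9 measured members differed between Naa10-KO and WT fat in limma at a Benjamini-Hochberg adjusted p of 0.05 over all genes, with 0 higher and 0 lower. Over all 18193 genes, 0.115% passed (0.0879% higher and 0.0275% lower). At an unadjusted p under 0.05, 1 of 9 members (Inhbb) was past the mark, against 9.2% of all genes. Means were higher in Naa10-KO for 7 members and lower for Inhbb and Bmp4, and adjusted p-values lay between 0.542 and 0.995. The median log2 difference, Naa10-KO minus WT, was 0.042 over the members and 0.013 over all genes. The groups separated without overlap for 1 member, Fst, with Naa10-KO the higher, whereas groups did not overlap in 18.1% of all genes.

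**Figure D1:**
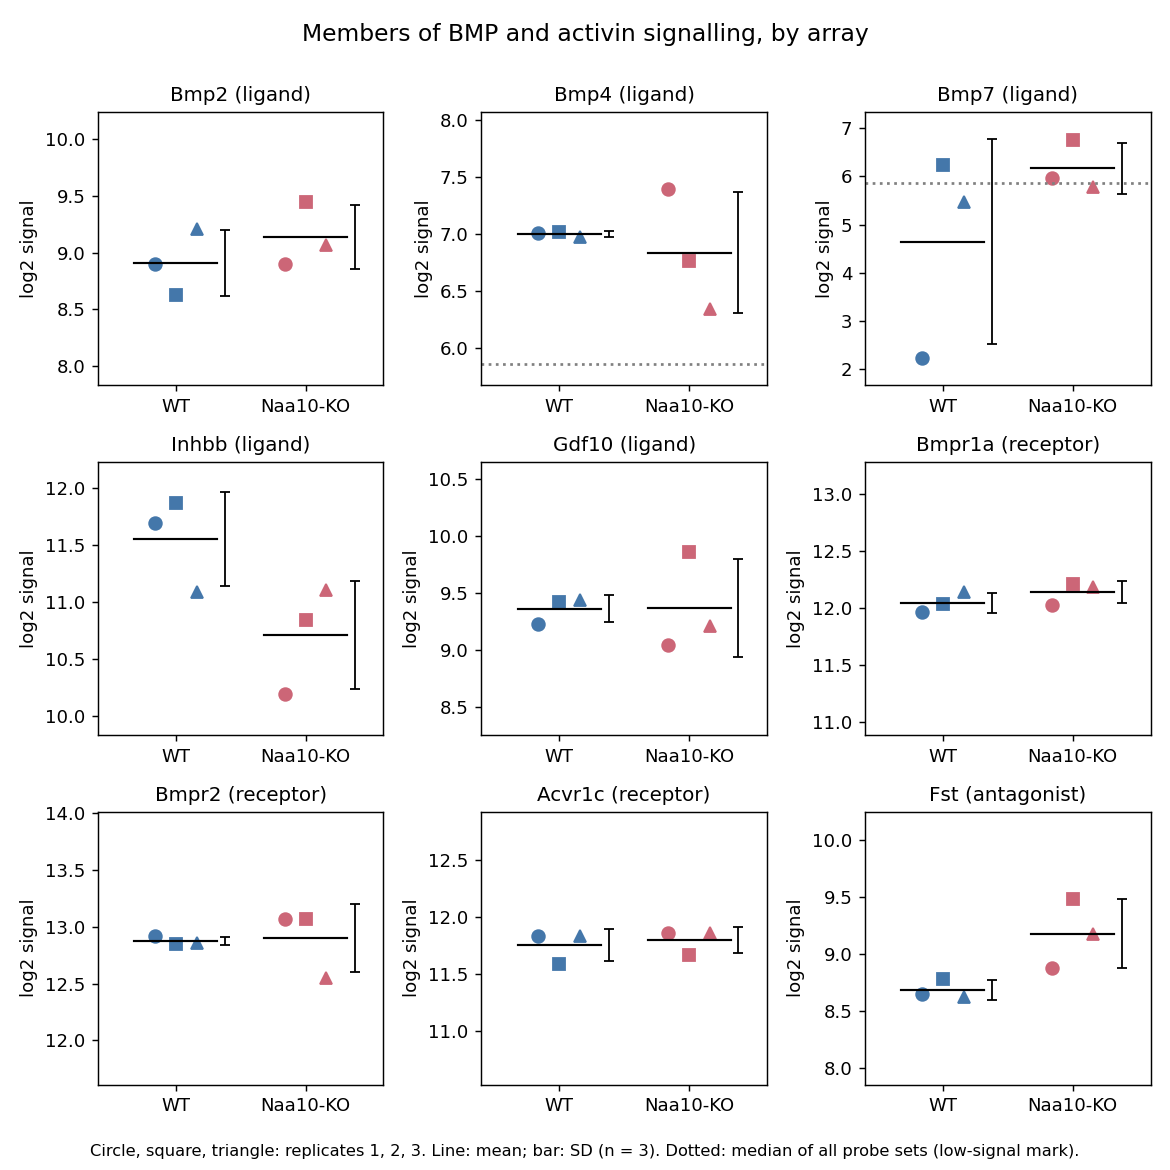
Log2 signal of the 9 measured members on each array (circle, square and triangle: replicates 1, 2 and 3), with the mean as a line and the SD as a bar (n = 3 arrays per genotype). Each vertical axis has its own range, and the dotted line marks the low-signal mark (5.86). Fst is the only member whose Naa10-KO arrays (8.88 to 9.49) all lie above its WT arrays (8.62 to 8.78), and Bmp7 has WT replicate 1 at 2.23, far below the other arrays.

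Among the ligands, Inhbb, which encodes the βB subunit of activin B, had the largest negative difference. WT replicates 1 to 3 had log2 signals of 11.69, 11.88 and 11.09, and Naa10-KO replicates 1 to 3 had 10.19, 10.84 and 11.11. WT replicate 3 and Naa10-KO replicate 3 were at nearly the same level, so the groups overlapped by that pair only. The means were 11.55 ± 0.41 (SD, n = 3) in WT and 10.71 ± 0.47 (SD, n = 3) in Naa10-KO, which differ by -0.84 (SE 0.33, 95% interval -1.68 to -0.0026, limma adjusted p = 0.542). WT was thus 1.79-fold above Naa10-KO, a difference that did not pass over all genes. A second Inhbb probe set differed in the same direction, by -0.40 (SE 0.30), with WT at 7.72 and Naa10-KO at 7.32. Naa10-KO replicate 1, the lowest array for both probe sets, was the array with the raised Gapdh 3' minus 5' signal. Without it the difference of Inhbb was -0.58. The part of RNA quality in this result was not tested.

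Bmp2 and Bmp4 encode the ligands best known for adipocyte commitment. Bmp2 was at 8.90, 8.62 and 9.21 in WT and at 8.90, 9.44 and 9.06 in Naa10-KO. The groups overlapped, and the difference of 0.23 (SE 0.23, 95% interval -0.36 to 0.82) was smaller than the spread between arrays. It was 0.072 without Naa10-KO replicate 2, 0.083 without WT replicate 2, 0.34 without Naa10-KO replicate 1 and 0.38 without WT replicate 3. Bmp4 was at 7.01, 7.02 and 6.97 in WT and at 7.40, 6.76 and 6.34 in Naa10-KO. The WT arrays were thus nearly equal, while the Naa10-KO arrays lay on both sides of them, with an SD of 0.53 against 0.024. The difference of Bmp4 was -0.17 (SE 0.29, 95% interval -0.90 to 0.57, limma adjusted p = 0.868), and its sign turned without Naa10-KO replicate 3 (0.079).

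Bmp7 had low signal and was the least precise member. Its values were 2.23, 6.25 and 5.47 in WT and 5.96, 6.77 and 5.77 in Naa10-KO, with 3 of 6 arrays below the low-signal mark. The difference of 1.52 (SE 1.10, 95% interval -1.24 to 4.28, limma adjusted p = 0.690) rested on WT replicate 1 and was 0.31 without it. With values below the low-signal mark raised to it, the difference was 0.21. The other 2 probe sets of Bmp7 differed by -0.37 and -0.39. Gdf10 encodes BMP3b, a ligand known to inhibit adipogenesis. It was at 9.22, 9.42 and 9.44 in WT and at 9.04, 9.86 and 9.21 in Naa10-KO. Means of Gdf10 were 9.36 ± 0.12 and 9.37 ± 0.43 (SD, n = 3 each), a difference of 0.0090 with a 95% interval of -0.63 to 0.65.

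With the probe sets used, the receptors had the smallest standard errors among the members. Bmpr1a encodes a type I receptor for BMPs. Its signals were 11.96, 12.04 and 12.14 in WT and 12.03, 12.21 and 12.19 in Naa10-KO. The groups overlapped within a narrow range, and the difference was 0.097 (SE 0.14, 95% interval -0.25 to 0.44). All 6 Bmpr1a probe sets differed by small amounts, from -0.20 to 0.097, with 4 lower and 2 higher. Bmpr2 encodes the type II receptor that pairs with it. It was at 12.92, 12.85 and 12.86 in WT and at 13.07, 13.07 and 12.55 in Naa10-KO. Naa10-KO replicate 3 was the lowest of all arrays and the other Naa10-KO arrays were the highest, so the difference was 0.024 (SE 0.19, 95% interval -0.46 to 0.51).

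Acvr1c, the gene of the activin receptor ALK7 of adipocytes, was at 11.84, 11.59 and 11.84 in WT and at 11.86, 11.66 and 11.86 in Naa10-KO. Replicate 2 was the lowest array in both genotypes and the others lay together. The difference was 0.042 (SE 0.15, 95% interval -0.34 to 0.42), and the other Acvr1c probe sets differed by -0.085 and 0.087. The intervals of Bmpr1a, Bmpr2 and Acvr1c, read singly, thus reach at most 0.51 on the log2 scale in either direction. A p that misses the threshold does not show equal levels, and smaller differences could not be resolved with 3 arrays per genotype.

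Fst, the gene of follistatin, was at 8.65, 8.78 and 8.62 in WT and at 8.88, 9.49 and 9.17 in Naa10-KO. Each Naa10-KO array was above each WT array, an order found in this direction in 10% of all genes. Means were 8.69 ± 0.087 and 9.18 ± 0.30 (SD, n = 3 each), a 1.41-fold difference (log2 difference 0.49, SE 0.20, 95% interval -0.0073 to 0.99, limma adjusted p = 0.542). A second Fst probe set had a mean of 7.71 in both genotypes. Its values were 7.76, 7.57 and 7.80 in WT and 7.13, 7.92 and 8.09 in Naa10-KO. The equal means thus rested on Naa10-KO replicate 1, the array with the raised Gapdh 3' minus 5' signal. The other Naa10-KO arrays were above each WT array, and the part of RNA quality was not tested. With the mean of both probe sets in place of the brighter, the difference was 0.25. Over the alternatives, limma adjusted p-values of Fst ranged from 0.272 to 0.811. Skeletal muscle markers were also higher on the Naa10-KO arrays, as given above, and their part in the difference of Fst was not tested.

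**Figure D2:**
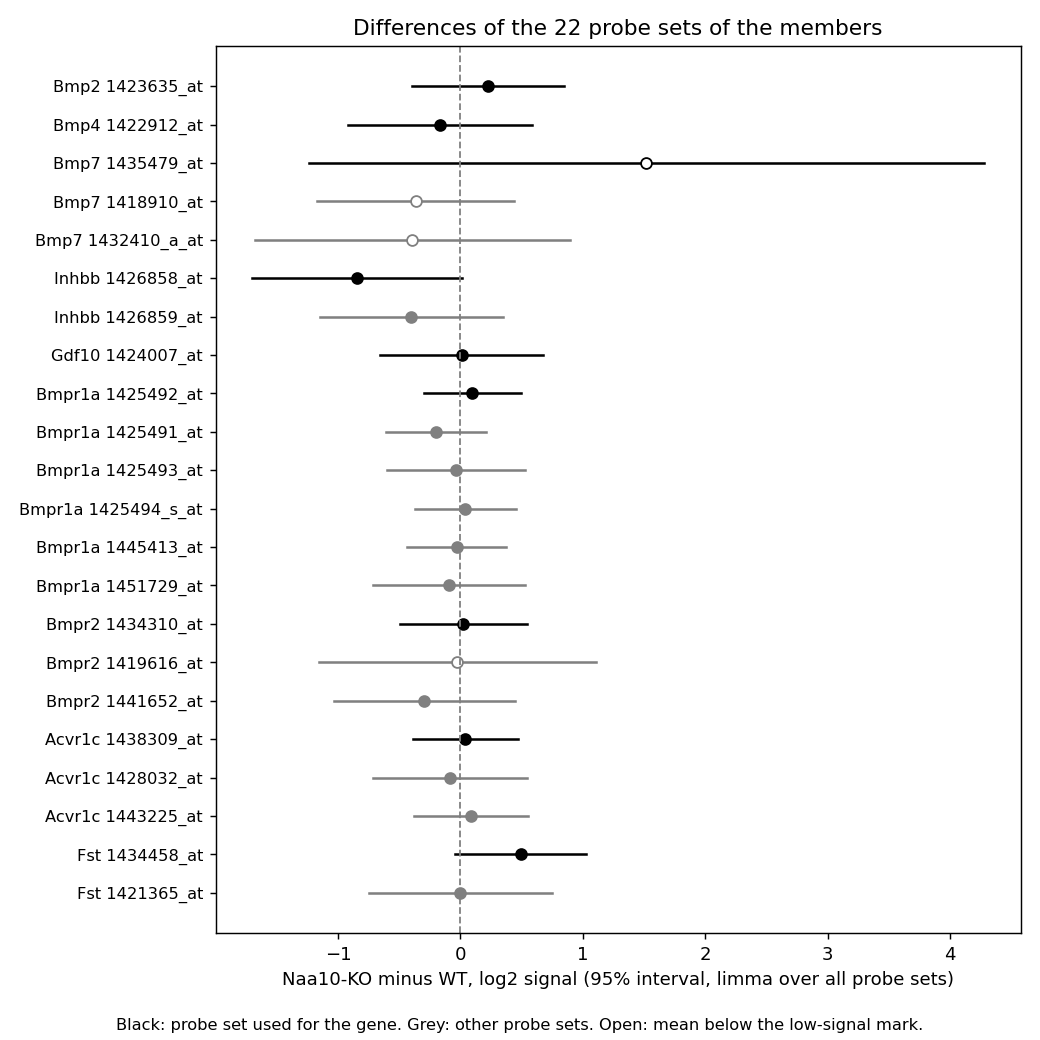
Difference between Naa10-KO and WT (log2 signal, horizontal axis) for each of the 22 probe sets of the members, with the 95% interval of a limma fit over all probe sets. Black marks the probe set used for the gene, grey the others, and open circles a mean below the low-signal mark. Every interval includes 0 in that fit. Among the probe sets used, those of Bmpr1a and Acvr1c have the narrowest intervals and that of Bmp7 the widest, and the dimmer Bmpr2 probe sets have wider intervals than the one used.

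The rest of the pathway was read from a list of 95 other genes in 7 roles, of which 88 were measured and 62 had a mean at or above the low-signal mark. In limma 0 of 88 passed in either direction over all genes. At an unadjusted p under 0.05, 9 were higher and 1 was lower, against 4.85% and 4.35% of all genes. Groups separated without overlap with Naa10-KO higher for 16 of 88 and lower for 2, against 10% and 8.14% of all genes. The median difference was 0.10 on the log2 scale, against 0.013 over all genes. Genes named below are the 3 of each role with the smallest unadjusted p, and none of their differences passed.

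Other receptors and co-receptors (15 measured, 11 means higher, median 0.34) included 6 genes whose Naa10-KO arrays were wholly above WT, against 10% of all genes. Of these 15, 13 had a mean at or above the low-signal mark. Among the 11359 such genes on the array, 1482 were wholly above WT. Hjv, which encodes hemojuvelin, a BMP co-receptor known from liver and skeletal muscle, had the largest difference of the list. Its signals were 5.51, 6.08 and 7.57 in WT and 9.30, 9.49 and 9.95 in Naa10-KO. The difference was 3.20 (SE 0.57, 9.17-fold, limma adjusted p = 0.224), and a second probe set differed by 3.87. WT replicate 3, the highest WT array for Hjv, was also the WT array with the highest muscle marker mean (8.62), and the part of muscle RNA in this difference was not tested. Hjv passed in limma under the low-value filter (adjusted p = 0.0446) and under robust eBayes with a trend (0.0102), within a range of 0.0102 to 0.454.

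Acvr1, the gene of the type I receptor ALK2, was at 10.52, 10.20 and 10.56 in WT and at 10.83, 10.85 and 10.86 in Naa10-KO (difference 0.42, SE 0.16, limma adjusted p = 0.532). The Naa10-KO arrays were nearly equal and above each WT array, but the other probe sets of Acvr1 differed by 0.22 and -0.70. The -0.70 (SE 0.84) came from a probe set with both group means below the low-signal mark (5.35 in WT and 4.65 in Naa10-KO). Tgfbr1, the type I receptor of TGF-β, was at 11.22, 11.03 and 11.14 in WT and at 11.37, 11.59 and 11.51 in Naa10-KO (difference 0.36, SE 0.14). Its weaker probe sets differed by 0.31 and -0.47.

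**Figure D3:**
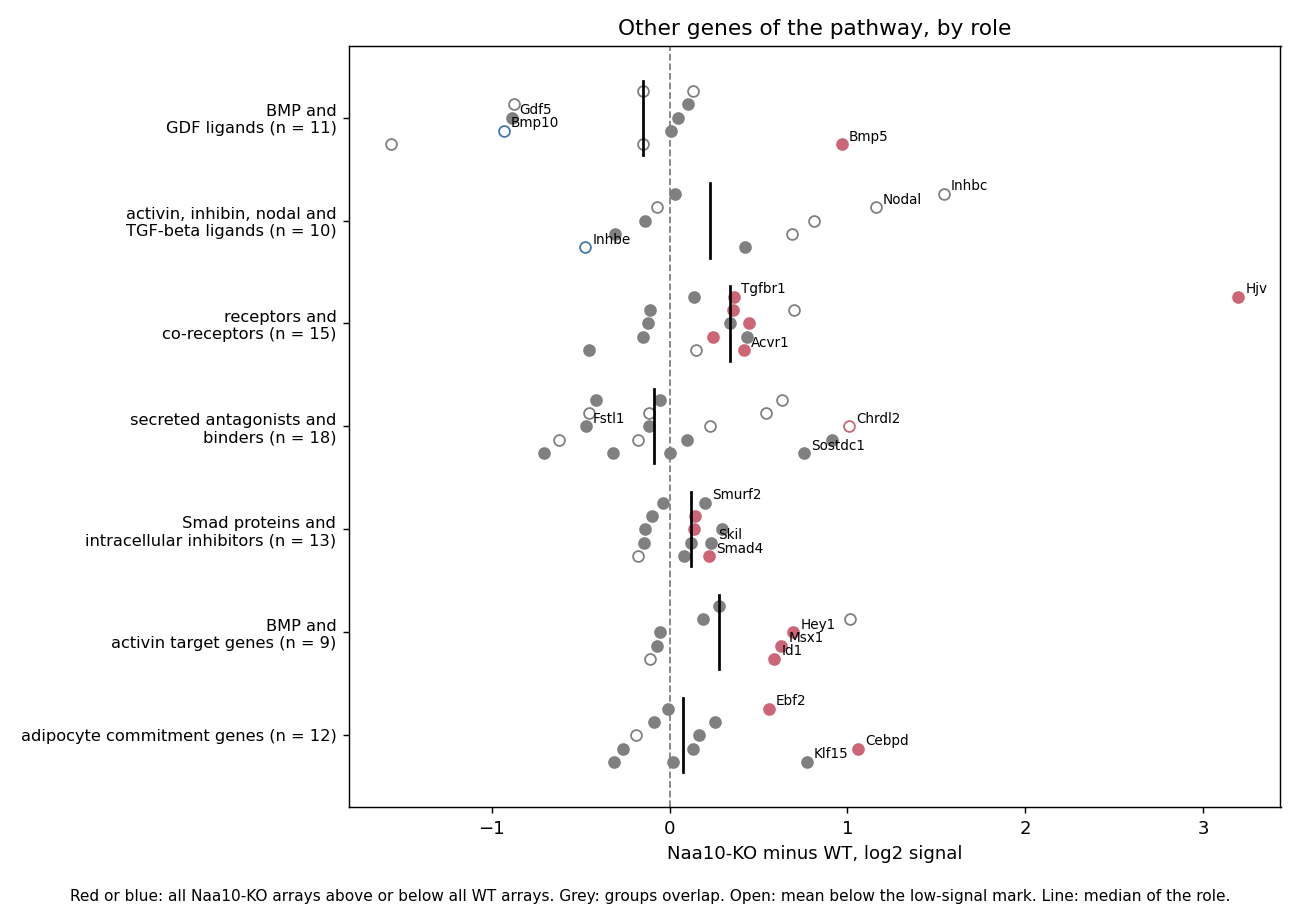
Difference between Naa10-KO and WT (log2 signal, horizontal axis) for the 88 other pathway genes, grouped by role, with the median of each role as a vertical line. Red and blue circles are genes whose Naa10-KO arrays all lie above (16 genes) or below (2 genes) the WT arrays, grey circles overlap, and open circles have a mean below the low-signal mark. Most genes lie near 0, and Hjv stands apart at 3.20.

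The other BMP and GDF ligands (11 measured, 5 means higher, median -0.15) were mostly of low signal, with 5 means at or above the low-signal mark. Bmp5, a ligand close to BMP7, was at 6.17, 5.98 and 5.37 in WT and at 6.57, 7.05 and 6.80 in Naa10-KO (difference 0.97, SE 0.27, limma adjusted p = 0.473). The groups did not overlap. Both other probe sets of Bmp5 were below the low-signal mark on all 6 arrays. Their means were higher in Naa10-KO, by 1.26 (SE 0.71) and 1.63 (SE 1.52). The 1.63 rested on WT replicate 3, at -0.53 against 4.32 and 4.42 on the other WT arrays. Gdf5 and Bmp10 differed by -0.88 and -0.93, with a difference of -0.54 for Gdf5 without Naa10-KO replicate 1 and Bmp10 below the low-signal mark on all 6 arrays. Among activin, inhibin, nodal and TGF-β ligands (10 measured, 6 means higher, median 0.23), Inhbe differed by -0.47, Inhbc by 1.54 and Nodal by 1.16. Nodal differed by 0.065 with low values raised to the mark, by 0.58 without WT replicate 1 and by -0.12 in its second probe set, and Inhbc by 0.80 without Naa10-KO replicate 3. Inhbe and Inhbc were under the low-signal mark on all 6 arrays, and Nodal on 5.

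Secreted antagonists and binding proteins other than follistatin had 8 of 18 means higher and a median of -0.085. Chrdl2, a chordin-like binder of BMPs, differed by 1.01 with 5 of 6 arrays below the low-signal mark, and by 0.016 with low values raised to it. Sostdc1, a secreted BMP antagonist, differed by 0.76, but by 0.37 without WT replicate 1 and by 0.41 with low values raised to the mark. Fstl1, a follistatin-like glycoprotein of stromal cells, had means of 13.31 ± 0.26 (WT) and 12.84 ± 0.37 (Naa10-KO; SD, n = 3 each), a difference of -0.47 with overlapping groups that was -0.26 without Naa10-KO replicate 1. Smad proteins and intracellular inhibitors had the smallest differences of any role (13 measured, -0.17 to 0.29, median 0.12). Smad4, the shared partner Smad, differed by 0.22, the ubiquitin ligase gene Smurf2 by 0.20, and Skil, a repressor of Smad transcription, by 0.23. The difference of Smad4 was 0.14 without WT replicate 2, and that of Skil lay between 0.097 (without Naa10-KO replicate 2) and 0.38 (without Naa10-KO replicate 3), with 0.15 without WT replicate 2.

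Genes known as targets of BMP or activin signals had 6 of 9 means higher and a median of 0.28. Id1, a direct BMP target that encodes an inhibitor of helix-loop-helix factors, was at 9.09, 8.78 and 9.35 in WT and at 9.97, 9.60 and 9.41 in Naa10-KO (difference 0.59, SE 0.23, limma adjusted p = 0.542). The lowest Naa10-KO array lay just above the highest WT array. Hey1, a transcriptional repressor, was at 7.02, 6.75 and 6.79 in WT and at 7.25, 7.78 and 7.61 in Naa10-KO (difference 0.69, SE 0.19, limma adjusted p = 0.473). Msx1, a homeobox factor, differed by 0.63, again with groups that did not overlap. Its dimmer probe set, below the low-signal mark on every array, differed by 2.21 (SE 0.73). The 3 genes were named for their small p, and the remaining 6 targets overlapped between the genotypes. Id2, Id3 and Id4, the relatives of Id1 on the list, chosen after their values were seen, differed by 0.28, 0.19 and -0.056.

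Adipocyte commitment genes had 7 of 12 means higher and a median of 0.076. Ebf2, a transcription factor of brown and beige preadipocytes, was at 9.02, 9.14 and 9.41 in WT and at 9.70, 9.87 and 9.68 in Naa10-KO (difference 0.56, SE 0.17, limma adjusted p = 0.483). Its groups did not overlap, and its other probe sets differed by 0.64 and, at lower signal, by -0.77. Cebpd, an early adipogenic factor, differed by 1.06 and Klf15, a factor of adipocyte metabolism, by 0.77, with Naa10-KO replicate 1, the array with the raised Gapdh 3' minus 5' signal, the highest for both (12.04 and 10.38). Without that array the differences were 0.68 for Cebpd and 0.38 for Klf15. Zfp423, a regulator of preadipocyte commitment downstream of BMP4 chosen after its values were seen, differed by -0.26, and Pparg, the central adipogenic factor, chosen likewise, by 0.16.

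**Figure D4:**
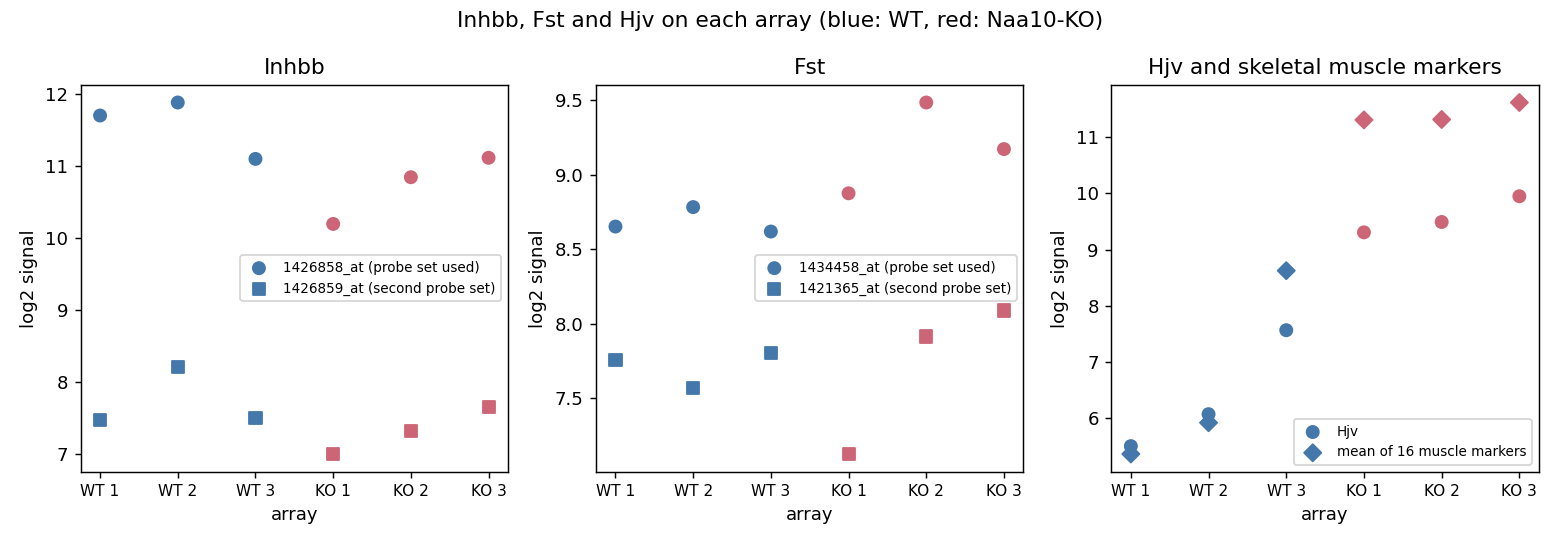
Log2 signal on each array (blue: WT, red: Naa10-KO) of both Inhbb probe sets, of both Fst probe sets, and of Hjv with the mean of 16 skeletal muscle markers. Inhbb is lowest on Naa10-KO replicate 1 in both probe sets (10.19 and 6.99), the Fst probe sets part on that array (8.88 and 7.13), and Hjv and the muscle markers are both highest on the Naa10-KO arrays and, among WT, on replicate 3.

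Likeness of pattern was measured for Inhbb, Fst and Bmp7, the members with the largest t in size, as Pearson's r over the 6 arrays against the 11359 genes with a mean at or above the low-signal mark. These r describe 6 arrays that share the genotype contrast. The genes most like Inhbb were S100b, a calcium-binding protein of glia and adipocytes (r = 0.995), Adam12, a membrane metalloprotease (r = 0.995), and Slc25a1, the mitochondrial citrate carrier (r = 0.994). S100b differed by -1.41, Adam12 by -0.93 and Slc25a1 by -1.17 on the log2 scale, and none of them passed. Nearest to Fst were Unc119b (r = 0.971), Trio (r = 0.969) and Adgra2 (r = 0.967), and nearest to Bmp7 were Brd1 (r = 0.996), Atf7 (r = 0.991) and Hdac10 (r = 0.989). The pattern of Bmp7 rests mainly on WT replicate 1, at 2.23 against 5.47 to 6.77 on the other arrays. The median best r of the 11359 genes was 0.993, so matches this close were the rule on 6 arrays.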

How the data were processed

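The deposited table holds log2 signals of 45101 probe sets on 6 arrays, 1 per mouse, made per the labels' protocols from 3 µg of total RNA. How the authors summarised the probes is not stated in the labels. The linear mean after trimming 2% at each end was 500 on every array, so each array had been scaled to 1 level. No detection calls were used. Values entered as deposited, with no filter. Probe sets annotated in 2016 to exactly 1 gene (34945) were kept, older list symbols were matched through a RefSeq table, and each of 18193 genes took the probe set of highest mean. The comparison used limma 3.58.1 (R 4.3.3) with lmFit and default eBayes (genotype only, 2-sided, Benjamini-Hochberg over all genes, threshold 0.05), after the steps were tested on simulated data. Other probe sets come from a fit over all probe sets. Intervals are 95% and not adjusted.

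The members and lists were chosen with earlier results of these data known. Named genes are the members, every pathway gene past the threshold, and the 3 of each role with the smallest unadjusted p. Added to these are the 3 genes most like each of the 3 members of largest t, and Id2, Id3, Id4, Zfp423 and Pparg, chosen after their values were seen. Replicate numbers 1 to 3 recur in both genotypes, but name different animals, with no litter or day given, so the main comparison has no block. Alternatives were quantile normalization, median centring, a filter and a floor at the array-wide median, averaging a gene's probe sets, leaving out x_at and s_at probe sets, robust eBayes with a trend, array weights, the replicate block and leaving out each array. The number of arrays limits the precision.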

Additional observations from a re-analysis of the deposited data

How the results depend on the processing

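No member passed the threshold in limma in any of the 15 alternatives (Bmp7, removed by the low-value filter, in 14), with a lowest adjusted p of 0.176 (Inhbb). Bmp2, Bmp7, Inhbb and Fst kept their sign in all of them. The other 5 lay near 0, and their sign turned in 8 results. With the probe sets of a gene averaged these were Bmpr1a (-0.036) and Bmpr2 (-0.099), and in the pathway list Acvr1 (-0.021) and Skil (-0.084). With 1 array left out, differences ran from -0.45 to 0.079 for Bmp4, from -0.23 to 0.17 for Gdf10 (-0.059 without WT replicate 1), from -0.063 to 0.20 for Bmpr2 and from -0.040 to 0.11 for Acvr1c. Pathway genes past the threshold numbered 1 under the low-value filter and 1 under robust eBayes with a trend (Hjv in both), and 0 in the other alternatives.

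Over all genes, 16 were higher and 5 lower. Counts were 70 higher with the filter, 104 and 13 with the floor, 102 and 35 with robust eBayes and a trend, 27 higher with array weights, and 3 lower with quantile normalization. With averaged probe sets they were 0 and 0 (736 and 755 at an unadjusted p under 0.05 in limma). With the replicate block they were 0 and 0 (649 and 627). Deviations of same-numbered arrays from their group means had correlations over all genes of -0.0067, -0.0057 and -0.031. Such values cannot exclude a shared litter or day that acts on some genes, and the labels give no pairing. With 1 array left out, counts ran from 0 to 29 higher and from 0 to 1 lower, with calls only without WT replicate 3 (29 and 1). Causes were not tested. Signals near or below the array-wide median limit Bmp7 and most ligands of the pathway list. Bmp2, Bmp4, Inhbb and Gdf10 were above it on all 6 arrays.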

Other observations

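Probe sets of the same gene often disagreed in sign. Of the 6 members with several probe sets, 5 had differences of both signs (Bmp7, Bmpr1a, Bmpr2, Acvr1c and Fst). So did 31 of 49 such pathway genes, against 55.2% of the 9010 such genes on the array. Signs were counted whatever the size of the difference. A gene with more probe sets has more occasions to show both signs. These 6 members had 2 to 6 probe sets each, and the share over all genes was not matched for that number. Fst was counted through a difference of -0.00027 (SE 0.30) in its second probe set, which is no change. Inhbb was the member whose probe sets shared a sign.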
